A study of Equus caballus with 20 samples.

Results

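The microRNAs eca-miR-224, eca-miR-378 and eca-miR-383 were followed in extracellular vesicles of mare follicular fluid as 3 of the 686 miRNA names measured. They were chosen by name, as known regulators of granulosa cell growth and estradiol output, and all 3 had a row of values in all 20 libraries. Vesicles are membrane-bound particles that cells shed into the fluid around them. The fluid was drawn in vivo, through the vaginal wall, from 19 mares of 8 to 14 years with a normal reproductive tract. In all of them, on day 10 or 11 after ovulation, every follicle of 6 mm or more had been ablated so that a new wave began. Growing follicles of that wave were sampled at predeviation (18 to 20 mm), deviation (22 to 25 mm), postdeviation (26 to 29 mm), preovulatory (30 to 35 mm) or impending ovulation, a stage given by its signs and not by a diameter. Each stage had 4 libraries. No label says which mare gave which library, and 20 libraries from 19 mares leave at least 1 mare with more than 1, so the p-values treat as independent some fluids that may not be, and the spread they measure is that between libraries.

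Granulosa cells line the follicle, convert androgens to estradiol with the enzyme aromatase and shed vesicles into the fluid, as do other cells of the follicle wall. In mouse granulosa cells miR-224 is induced by TGF-beta1, lowers SMAD4, and raises proliferation and estradiol release. MiR-378 lowers aromatase in pig granulosa cells by acting on its mRNA. MiR-383 lowers RBMS1 in mouse granulosa cells and raises estradiol release. MiR-224 and miR-383 are thus known as promoters of estradiol output and miR-378 as a brake on it. Deviation is the point at which the future dominant follicle outgrows the others, and estradiol in the fluid is known to climb in the selected follicle.

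The 3 miRNAs differed widely in abundance. Values are scaled reads, that is, whole reads of a miRNA multiplied by 1 factor per library that the authors set. MiR-378 averaged 9639 ± 2059 scaled reads (SD, n = 20) and ranked 20 by mean among the 325 miRNAs above 0. MiR-224 averaged 61.6 ± 55.1 scaled reads and ranked 152. MiR-383 averaged 4.20 ± 9.42 scaled reads and ranked 268. In whole reads over all libraries, miR-378 had 13710, miR-224 had 91 and miR-383 had 8, of 1457859 reads in all. The libraries held 27131 to 110130 reads each. Reads of different miRNAs were not corrected for how well each ligates, so these ranks compare reads and not molecules. The names carry no arm, and no source used here says how reads that fit several near-identical copies were counted.

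Library preovulatory 1 was the least like the others, by a small gap, and was singled out after its values were seen. Its mean Spearman correlation with the other libraries, over the 264 tested miRNAs, was 0.799, against 0.812 to 0.863 for the other 19. It held 50254 scaled reads of miR-218 (85.0 to 33875 in the other 19). Of the neural and endocrine marker list miR-124, miR-9a, miR-7, miR-128 and miR-375, 4 of 5 had a row and all 4 were above 0 in some library. The summed level of these 4 was 64062 scaled reads in preovulatory 1, against 8989 to 55507 in the other 19. Taken singly, miR-124 was above the range of the others (139 scaled reads, against at most 91.5), while miR-7 (32836, against 529 to 33479), miR-9a (16242, against 0 to 28044) and miR-128 (14845, against 5297 to 24173) lay inside it. Its depth of 105466 reads was not low. It also had the lowest miR-378 of all 20 libraries and no read of miR-224. Why this library was the least like the others, and whether the same cause set those values, was not tested. Results that rest on preovulatory 1 are given with and without it.

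MiR-378 was present in every library, at 3963 to 13707 scaled reads. At predeviation it had 10467, 8734, 11408 and 12869 scaled reads in libraries 1 to 4. At deviation the values were 9190, 13707, 11949 and 7738, and at postdeviation 10980, 9161, 8861 and 9408. Each of these 12 libraries lay between 7738 and 13707 scaled reads, and the 3 stages overlapped. The preovulatory libraries had 3963, 9848, 9199 and 8847 scaled reads, and those at impending ovulation 9022, 7752, 9966 and 9707. Apart from preovulatory 1 these, too, lay inside that range.

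**Figure D1:**
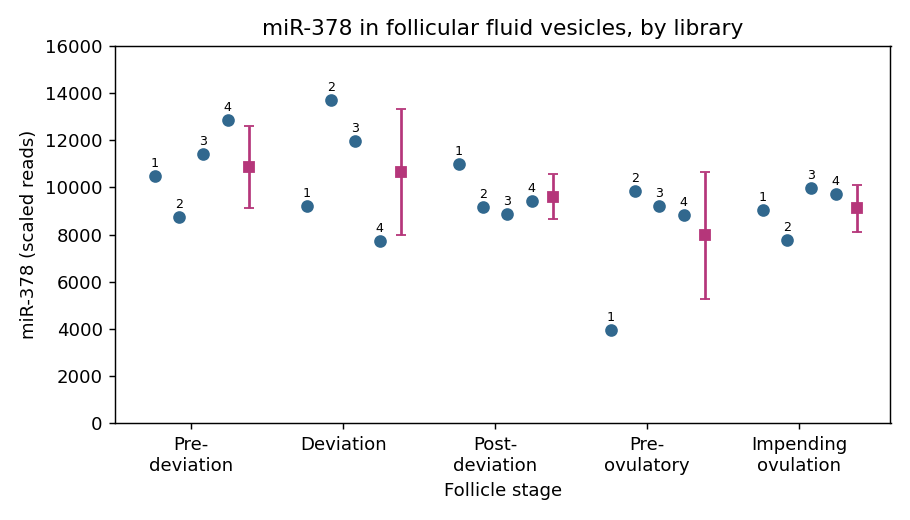
Scaled reads of miR-378 in each library (circles, numbered by replicate) at the 5 follicle stages, with the mean and SD of each stage (squares with bars, n = 4). All libraries lie between 7738 and 13707 scaled reads except preovulatory 1, at 3963, and the stages overlap.

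The stage means of miR-378 were 10869 ± 1733 scaled reads at predeviation, 10646 ± 2686 at deviation, 9603 ± 945 at postdeviation, 7964 ± 2700 at preovulatory and 9112 ± 990 at impending ovulation (SD, n = 4 each). From high to low the order was predeviation, deviation, postdeviation, impending ovulation and preovulatory, and every neighbouring pair in it overlapped in its libraries. The differences between neighbours were 223 to 1148 scaled reads, each below the larger SD of its pair. Without preovulatory 1, the preovulatory mean was 9298 ± 508 scaled reads (n = 3).

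The order of the means rested on the scale. As a share of the reads of its library, miR-378 took 0.874% ± 0.130 at predeviation, 0.995% ± 0.250 at deviation, 1.05% ± 0.203 at postdeviation, 0.890% ± 0.300 at preovulatory and 0.998% ± 0.0677 at impending ovulation (SD, n = 4 each). Predeviation thus had the highest mean in scaled reads and the lowest mean share. Within this stage, predeviation 4 had the highest miR-378 in scaled reads (12869) and the lowest share (0.724%). The scaled reads of all miRNAs in predeviation 4 had the largest sum of the 20 libraries. How far the mismatch of scaled reads and share rests on this library was not tested. The single lowest share was 0.460% in preovulatory 1 (485 of 105466 reads, exact 95% binomial interval 0.420% to 0.503%, counting error only). In the other 19 libraries the share ran from 0.688% to 1.35%. Within its own library miR-378 ranked 36 by reads in preovulatory 1 and 15 to 27 in the other 19. Reads carry no molecular identifiers, so all such intervals and floors cover counting error only.

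The tests of miR-378 found no difference between stages that passed the threshold, an adjusted p under 0.05. They were made with limma on log2(scaled reads + 1), in a single fit of all 20 libraries and 264 miRNAs. The F test over the 5 stages gave F = 0.979 (limma adjusted p = 0.650), in which 4.92% of the 264 miRNAs were called. The linear trend was -0.10 ± 0.07 log2 per stage step (SE; 95% interval -0.23 to 0.04, limma adjusted p = 0.392), in which 5.68% were called. Its sign turned to 0.02 when the libraries were brought to equal totals.

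The 10 pairs of stages gave an interval each for the change of miR-378 on the deposited scale. Among the pairs the widest difference was that of preovulatory and predeviation, at 7964 ± 2700 against 10869 ± 1733 scaled reads (SD, n = 4 each). It gave a log2 difference of -0.52 ± 0.29 (SE; 95% interval -1.12 to 0.09, limma adjusted p = 0.426), with 1 of 4 preovulatory libraries below all at predeviation. Without preovulatory 1 that difference was -0.21. It was -0.04 with equal library totals and -0.76 with quantile normalization. Over the 10 pairs the adjusted p lay between 0.426 and 0.995, and the 95% intervals reached from 0.459-fold to 1.84-fold. Missing the threshold does not show that the stages have equal levels. On the deposited scale a change beyond those limits lay outside the interval of every pair. Each interval is for 1 pair alone, treats the libraries as independent and does not cover a change of scale.

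In the same pairs the background of calls was low. Over all 264 miRNAs, 6.06% were called between postdeviation and predeviation, 4.92% between preovulatory and predeviation, and 5.68% between impending ovulation and predeviation. It was 0.379% both between deviation and predeviation and between impending ovulation and deviation. In each of the other 5 pairs 0% were called by limma, with 16 to 30 miRNAs at an unadjusted p under 0.05; there edgeR called 0 to 3 and DESeq2 0 to 6. The 3 miRNAs gave 0 calls in 30 pair tests, 3 F tests and 3 trend tests by limma. Of these, 3 had an unadjusted p under 0.05, all of them of miR-383, which had at most 3 reads in either stage. The 10 pair tests of miR-383 add little to that count, as the libraries with a read decided that it was tested. In 3 of them both stages had no read, so no difference could be found. With edgeR and DESeq2 on whole reads the 3 miRNAs also gave 0 calls.

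**Figure D2:**
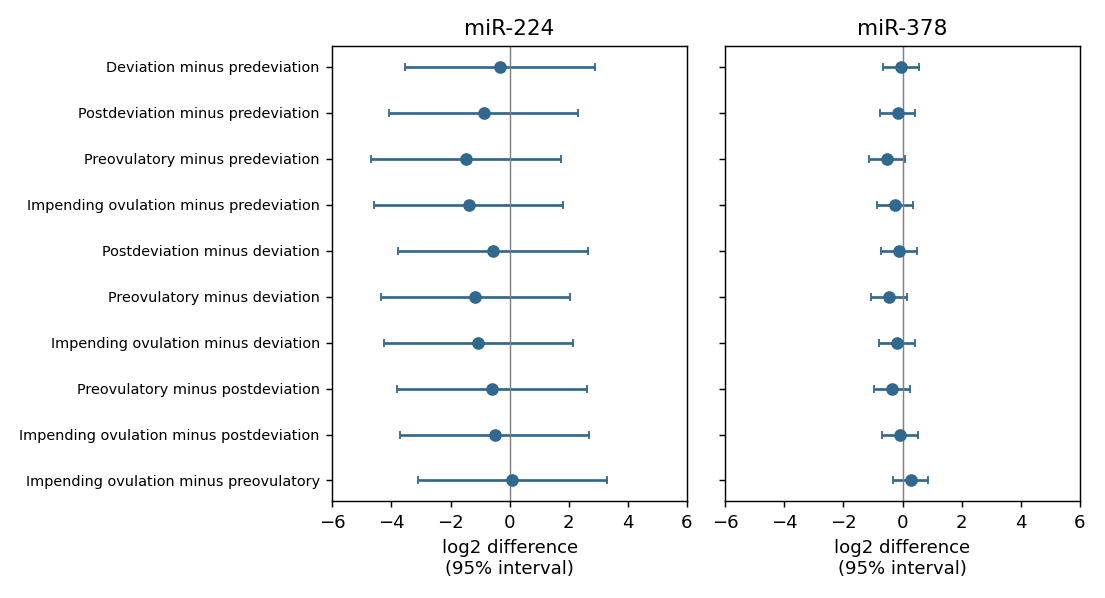
Log2 difference (later stage minus earlier stage, limma on log2(scaled reads + 1), points) with its 95% interval (bars) for the 10 pairs of stages, for miR-224 and miR-378. The intervals of miR-378 have a half-width of 0.60 and those of miR-224 of 3.21, and no point passed an adjusted p of 0.05.

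MiR-378 was among the steadier miRNAs tested. Its SD over the 20 libraries was 0.36 on the log2 scale, the fifth smallest of the 264 tested, where the median was 1.90. Only 2 of the 20 miRNAs nearest to it in mean log2 level had a smaller SD (range 0.32 to 1.21, median 0.57). Without preovulatory 1 the SD was 0.22 and its rank was 1 of 264, while its rank was 18 with quantile normalization and 2 with equal library totals. The coefficient of variation was 21.4% over 20 libraries and 16.2% over the 19, where counting error alone averaged 4.03% over the 20. Its reads thus varied by more than counting error, with a chi-square within stages of 37.0 for each degree of freedom. These values describe the libraries, and the rank of miR-378 was not tested.

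**Figure D3:**
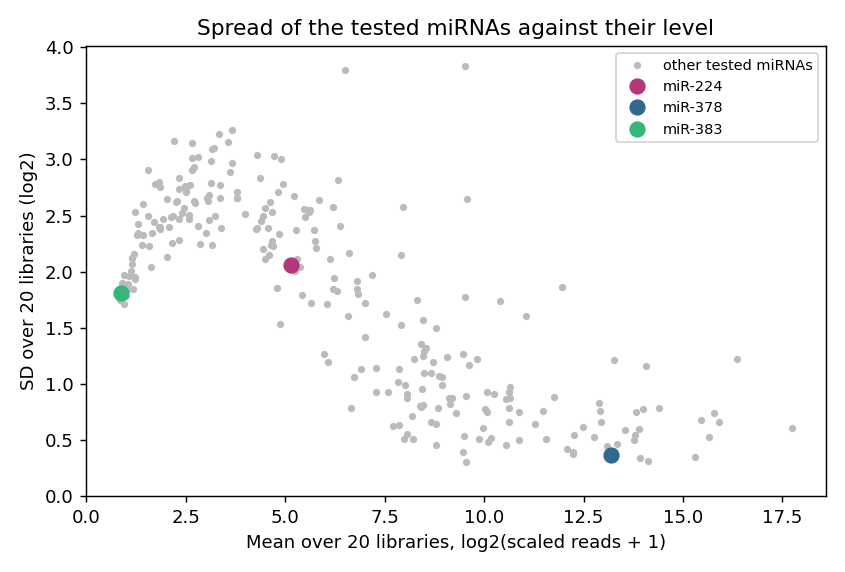
SD over the 20 libraries (log2 scale) against the mean of log2(scaled reads + 1) for the 264 tested miRNAs (grey points), with miR-224, miR-378 and miR-383 in colour. MiR-378, with an SD of 0.36, lies at the low edge of the cloud, while miR-224 (2.06) and miR-383 (1.81) lie among miRNAs of few reads.

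MiR-224 was scarce, with 0 to 16 reads in a library and a read in 18 of 20. Libraries 1 to 4 had 6, 5, 2 and 3 reads of it at predeviation and 2, 13, 2 and 3 at deviation. At postdeviation they had 1, 4, 1 and 6 reads. At the later stages the counts were most uneven, with 0, 10, 1 and 6 reads at preovulatory and 1, 0, 9 and 16 at impending ovulation. The libraries without a read were preovulatory 1 and impending ovulation 2, and the latest stage held both an empty library and the highest one. A count of 0 was given a floor of 3 reads, or 0.00284% of reads in preovulatory 1 and 0.0100% in impending ovulation 2, which had only 29862 reads. The exact two-sided 95% binomial intervals reach further, to 0.00350% and 0.0124%. The share in impending ovulation 4 was 0.0182% (exact 95% binomial interval 0.0104% to 0.0295%).

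In scaled reads miR-224 averaged 62.4 ± 17.7 at predeviation, 69.0 ± 75.9 at deviation, 45.2 ± 43.5 at postdeviation, 56.4 ± 63.2 at preovulatory and 74.8 ± 81.2 at impending ovulation (SD, n = 4 each). The order of the means, from high to low, was impending ovulation, deviation, predeviation, preovulatory and postdeviation. Neighbours in it differed by 5.74 to 11.3 scaled reads, and all overlapped. Summed over a stage, the reads were 16, 20, 12, 17 and 26 from predeviation to impending ovulation. The widest gap among these sums, 26 reads of 254867 at impending ovulation (exact 95% Poisson interval 17.0 to 38.1) against 12 of 260082 at postdeviation (6.20 to 21.0), left overlapping intervals.

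No test of miR-224 passed. The F test gave F = 0.349 (limma adjusted p = 0.911) and the trend was -0.39 ± 0.35 log2 per stage step (SE; 95% interval -1.11 to 0.32, limma adjusted p = 0.522). The fitted log2 difference between impending ovulation and predeviation was -1.38 ± 1.55 (SE, limma adjusted p = 0.698), although the mean was 74.8 at impending ovulation and 62.4 at predeviation. Without impending ovulation 2, which held no read, it was 0.14, and with edgeR on whole reads it was 0.34. Between preovulatory and predeviation the fitted difference was -1.48 ± 1.55 (SE, limma adjusted p = 0.750), and without preovulatory 1 it was 0.01. Signs of miR-224 between stages are therefore not given as results. The 95% interval of each of its 10 pairs reached 3.21 log2, or 9.23-fold, to either side of the fitted difference.

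**Figure D4:**
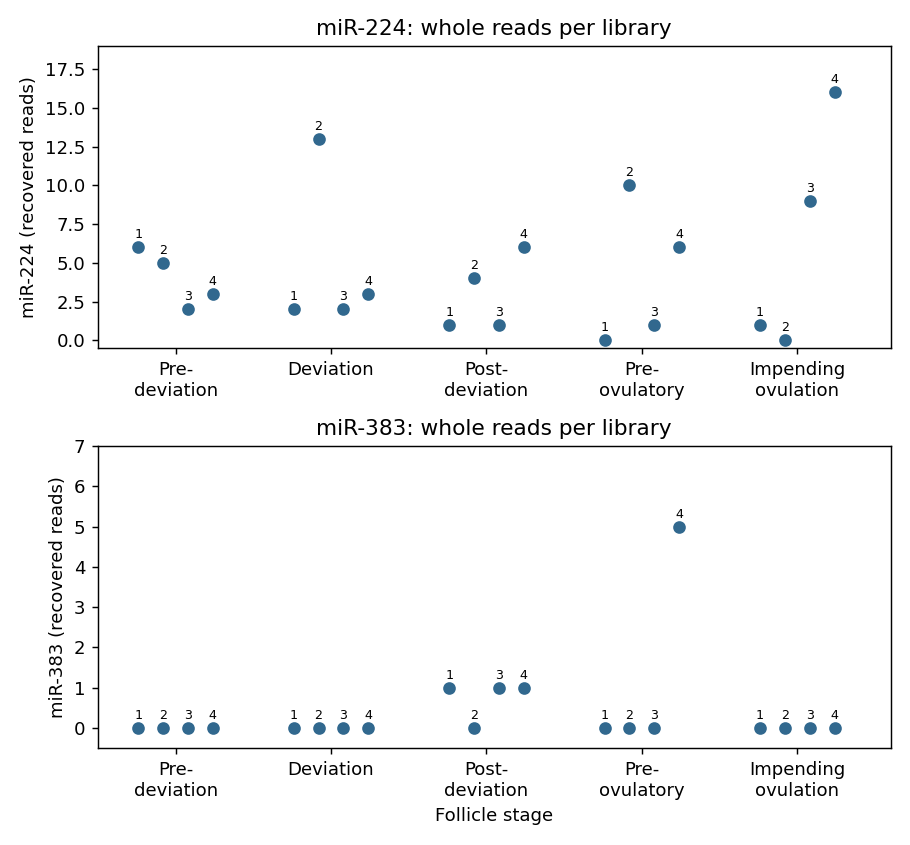
Whole reads of miR-224 (top) and miR-383 (bottom) in each library (circles, numbered by replicate) at the 5 follicle stages. MiR-224 has 0 to 16 reads with a high and a low library in most stages, and miR-383 has reads in only 4 libraries, 3 at postdeviation and preovulatory 4.

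MiR-383 was near the limit of detection. Its 8 reads lay in 4 libraries, with 5 reads in preovulatory 4 and 1 read each in postdeviation 1, 3 and 4. No read was seen in the other 16 libraries, among them all 12 at predeviation, deviation and impending ovulation. It entered the test with exactly the 4 libraries of at least 10 scaled reads that the filter asks for, so the libraries in which it was seen decided that it was tested, and 253 of the 264 tested miRNAs had more reads. The sums were 5 reads at preovulatory (exact 95% Poisson interval 1.62 to 11.7, of 307779 reads) and 3 at postdeviation (0.619 to 8.77, of 260082). A sum of 0 reads was given a floor of 3 reads over a stage, or 0.000941% of reads at predeviation, 0.000949% at deviation and 0.00118% at impending ovulation. The exact two-sided 95% Poisson interval of a sum of 0 reaches further, to 3.69 reads. The postdeviation sum of 3 equals that floor, so no fold is given for it.

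The scaled reads of miR-383 were 0, 0, 0 and 35.2 at preovulatory and 14.4, 0, 16.5 and 17.9 at postdeviation. The mean was 8.80 ± 17.6 at preovulatory and 12.2 ± 8.26 at postdeviation (SD, n = 4 each), and the stages overlapped, as did each of them with the stages at 0. The F test and the trend missed the threshold (limma adjusted p = 0.283 and 0.828), as did the 10 pairs. The libraries with a read decided both that miR-383 was tested and where it was higher. A fitted difference against stages without a read is set by the pseudocount. The size of its differences is therefore not given as a result, and nothing is read from these p-values. Leaving out postdeviation 2, the postdeviation library at 0, brought the limma adjusted p between postdeviation and predeviation to 0.0338. It was the single call among 406 alternative values of miR-383, on 1 read in each of 3 libraries. Nothing is read from this call either.

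Over the 20 libraries, miR-224 and miR-378 had a Spearman correlation of 0.55 on log2(scaled reads + 1), and of 0.48 without preovulatory 1. MiR-383 had -0.12 with miR-378 and -0.14 with miR-224. The miRNAs most like miR-378 over the 20 libraries were miR-1388 (rho 0.72), miR-10a (0.62), miR-193b (0.61), miR-671-3p (0.57) and miR-224 (0.55). Those most like miR-224 were miR-31 (0.59), miR-378 (0.55), miR-145 (0.55), miR-9156 (0.53) and miR-200c (0.50), and those most like miR-383 were miR-490-5p (0.64), miR-590-3p (0.59), miR-450c (0.55), miR-874 (0.53) and miR-6529 (0.46). These are descriptions over libraries that share stages and a scaling factor each, and the order for miR-383 rests on 4 libraries above 0. With the depth of the library in reads, Spearman's rho was 0.18 for miR-224, -0.23 for miR-378 and -0.11 for miR-383.

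Other miRNAs described in granulosa cells of mammals gave a setting for the 3. Of 25 listed names 21 had a row and 19 were tested; miR-26b, miR-320, miR-375 and miR-202 were not analysed here. MiR-22 and miR-92a passed the threshold with a positive linear trend, and 0 passed with a negative one. That is 2 of 19 or 10.5%, beside 5.68% of all 264 in the trend. The median trend of the 19 was -0.06 log2 per stage step, beside -0.08 over all 264. MiR-92a, a member of a cluster known to promote cell growth, averaged 3036 ± 943 scaled reads at predeviation, 4816 ± 578 at deviation, 6627 ± 152 at postdeviation, 8030 ± 1088 at preovulatory and 8537 ± 1744 at impending ovulation (SD, n = 4 each; 0.38 ± 0.06 log2 per step, SE, limma adjusted p = 0.000462). MiR-22, which lowers SIRT1 in mouse granulosa cells, had a trend of 0.31 ± 0.07 (SE, limma adjusted p = 0.00774), but did not rise at each step. Its means were 6838 ± 956 scaled reads at predeviation and 13851 ± 2811 at deviation. The highest was 25804 ± 7756 at postdeviation, followed by 15669 ± 6082 at preovulatory and 19755 ± 3707 at impending ovulation (SD, n = 4 each). Both trends stayed positive and past the threshold under 3 rescalings and with any 1 library left out. The list was written with earlier results known. The summed levels of some marker lists of other tissues moved over the same stages, and their part in these trends was not tested. Other lists ended near their first level. From predeviation to impending ovulation the leukocyte medians were 6486, 5711, 4562, 4528 and 6129 scaled reads. Those of red blood cells were 16421, 25648, 15139, 13376 and 17336. From predeviation to impending ovulation, the median summed level of the 3 liver and plasma markers miR-122, miR-192 and miR-194, all above 0, was 31006, 67676, 104793, 58027 and 90875 scaled reads per library, highest where miR-22 was. That of the neural and endocrine markers was 18138, 17607, 26813, 37287 and 42113, and that of the 5 smooth muscle and stroma markers, miR-143 among them and all above 0, was 41401, 25729, 19105, 18266 and 7580. Over libraries, the range was 85838 to 102656 at impending ovulation and 17262 to 69578 at predeviation for liver and plasma, with no overlap. It was 31526 to 55507 at impending ovulation and 8989 to 26403 at predeviation for neural and endocrine, also with no overlap. For smooth muscle and stroma it was 7009 to 51602 at impending ovulation and 15559 to 95818 at predeviation, with overlap. These sums mostly follow their abundant members. Over the 20 libraries miR-192 averaged 62577 scaled reads, miR-122 8805 and miR-194 433. On the log2 scale, the SD over all libraries and that within stages were 0.74 and 0.41 for miR-192. They were 0.76 and 0.74 for miR-122 and 1.10 and 1.02 for miR-194. Among the neural and endocrine markers they were 0.59 and 0.39 for miR-128 and 1.86 and 1.87 for miR-7. MiR-9a had 3.83 and 3.42, and miR-124 2.43 and 2.40. For miR-122, miR-194, miR-7 and miR-124 both SDs were close, so the stages separated these members little.

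The 4 most abundant of that list did not pass in the trend. MiR-21, induced by luteinizing hormone in mouse granulosa cells, had -0.32 ± 0.16 log2 per step (SE, limma adjusted p = 0.243), and miR-10b had -0.08 ± 0.09 (0.637). MiR-423-5p had 0.12 ± 0.06 (0.243) and miR-143, a smooth muscle miRNA also studied in granulosa cells, had -0.45 ± 0.14 (0.0654). The trend of miR-378, -0.10 ± 0.07, had a narrower interval than that of miR-143, whereas those of miR-224 and miR-383 were wider than it. That miR-92a or miR-22 passed and miR-378 did not is no test of a difference between them.

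**Figure D5:**
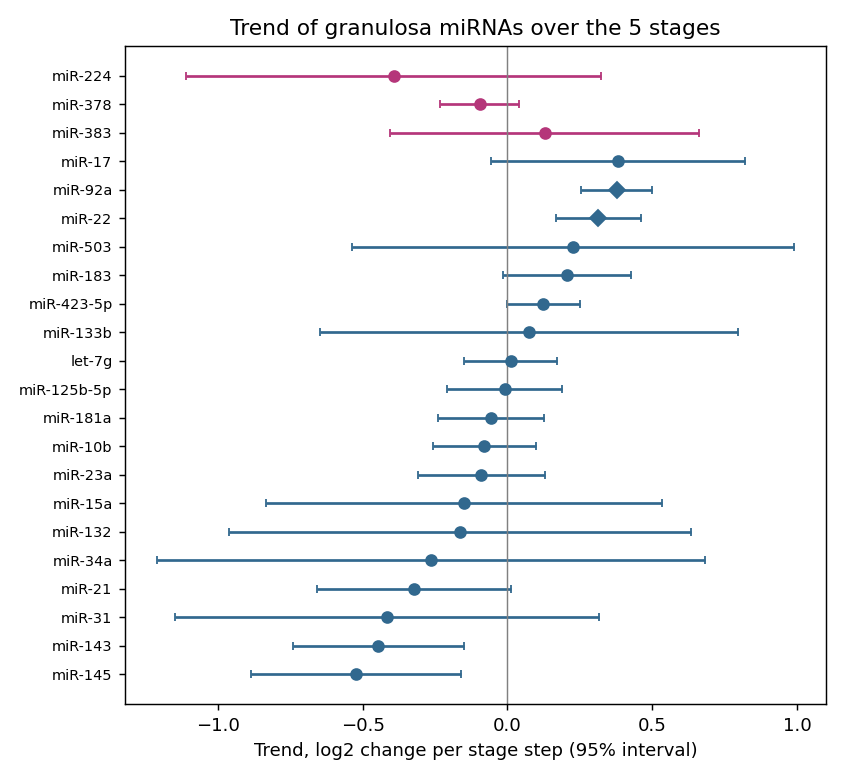
Linear trend over the 5 stages (log2 change per stage step, limma, points) with its 95% interval (bars) for miR-224, miR-378 and miR-383 (top, magenta) and the 19 tested miRNAs of the granulosa list (blue). Diamonds mark miR-92a (0.38) and miR-22 (0.31), which passed an adjusted p of 0.05; circles did not.

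The markers listed for gonadal somatic cells that had a row had few reads. Among the gonadal somatic list miR-202, miR-212, miR-132 and miR-503, 3 of 4 had a row, and miR-202 had none. The summed level of the 3 was 0 to 283 scaled reads in a library. This sum does not measure how much of the vesicle RNA came from granulosa cells. Markers of red blood cells (miR-451, miR-486-5p, miR-486-3p and miR-144, all 4 above 0) summed to 7643 to 73092 scaled reads, and those of leukocytes (6 of 6 above 0) to 2222 to 8336. The 4 markers of multiciliated epithelium, such as lines the oviduct, summed to 0 to 35.8 scaled reads at postdeviation, as did the gonadal ones. At predeviation the multiciliated sum was 571 to 9184 scaled reads, against 38.1 to 137 for the gonadal list. Its highest library had 1103 at deviation, 256 at preovulatory and 2124 at impending ovulation, against 84.4, 127 and 283 for the gonadal list. By median the gonadal sum was the higher at postdeviation (14.4 against 5.29) and at preovulatory (67.3 against 57.2). The multiciliated median was the higher at predeviation (1527 against 80.9), deviation (559 against 35.5) and impending ovulation (291 against 90.5). The vesicles of a fluid have several sources, and fewer vesicles of a type and less of a miRNA per vesicle cannot be told apart.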

How the data were processed

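Small RNA was sequenced from vesicles pelleted by ultracentrifugation, in TruSeq Small RNA libraries, per the labels. Tools in the submitters' processing notes were bcl2fastq, Bowtie2 2.2.2 and DESeq2, with the build EquCab3.0, without a role; no source used here gives the miRNA annotation. The authors deposited a scaled read signal that they named CPM. Its columns summed to between 774632 and 1778185, and 100% of the values were whole multiples (tolerance 1e-06) of the smallest value above 0, worth 7.04 to 36.5 in a library, so whole reads were recovered by division.

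Testing was limited to 264 miRNAs that reached 10 scaled reads in 4 or more libraries. The fit of log2(value + 1), with 1 mean per stage, used limma 3.58.1 (R 4.3.3, variance trend on); the adjustment was by Benjamini-Hochberg over all 264 within a comparison, and tests were two-sided. The trend used scores from -2 to 2. The 3 miRNAs, the lists and the tests were chosen with earlier results of these data known. Named besides the 3 were the 5 miRNAs most like each by Spearman correlation, and of the granulosa list those that passed and the 4 most abundant. Alternatives were pseudocounts of 0.5 and 10, other filters, 3 rescalings, other limma settings, edgeR 4.0.16 and DESeq2 1.42.0 on whole reads, and leaving out libraries. The tests were checked on simulated data with most miRNAs changed at impending ovulation, by more than any difference fitted for miR-378. That check does not cover changes as small as those of miR-378. No reference sequences were used here. Every pair of replicates differed by more than counting error, with a chi-square of at least 9.88 for each degree of freedom.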

Additional observations from a re-analysis of the deposited data

Results flagged for a closer look

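In 3 groups of 4 libraries, the gap between 1 library and the next took up more of the group's range than Dixon's 95% critical value for 4 samples allows. For normally spread values chance flags about 1 in 20 groups, a rate that does not hold for counts of a few reads. In all, 12 groups with any spread were looked at. MiR-224 in deviation 2 was at 183 scaled reads (13 reads), with the other deviation libraries at 26.3 to 35.6 and a gap of 0.941 of the range. MiR-378 in preovulatory 1 was at 3963 scaled reads, with the other 3 at 8847 to 9848 and a gap of 0.830 of the range, just past the critical value. MiR-383 in preovulatory 4 was at 35.2 scaled reads (5 reads), with the other 3 at 0. With those at 0 the gap is the whole range at any count, so this flag was fixed in advance. What set these libraries apart was not tested.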

How the results depend on the processing

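For the 36 tests of the 3 miRNAs, 35 other settings (20 with 1 library left out) gave 1230 values, of which 1 passed the threshold. It was miR-383 between postdeviation and predeviation without postdeviation 2 (fitted log2 value with a library left out 2.69 to 4.10, a size set by the pseudocount). Nothing is read from this size or from this call. The call left out the postdeviation library at 0 and rests on 1 read in each of 3 libraries. The lowest adjusted p among all settings was 0.135 for miR-378 and 0.327 for miR-224. Of the 1230 values 406 were of miR-383, and these include pairs of stages without a read, which had no difference to find. With a mean of at least 100 as the filter, miR-224 and miR-383 were not tested and have no value.

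Values that changed sign were all of tests that missed the threshold, and the cause was not tested. On whole reads, in the order edgeR on the deposited scale, edgeR with TMM and DESeq2, miR-224 had log2 differences of 0.136, 0.192 and 0.191 between deviation and predeviation, 0.335, 0.510 and 0.382 between impending ovulation and predeviation, 0.199, 0.317 and 0.191 between impending ovulation and deviation, 0.312, 0.307 and 0.268 between preovulatory and postdeviation, 0.814, 0.916 and 0.801 between impending ovulation and postdeviation, and trends of 0.037, 0.073 and 0.042. With a pseudocount of 10 its difference between impending ovulation and postdeviation was 0.122. Without both libraries under 40000 reads, impending ovulation gave 0.138 against predeviation, 0.459 against deviation and 1.02 against postdeviation. With equal library totals miR-378 turned to 0.163 (deviation), 0.253 (postdeviation) and 0.201 (impending ovulation) against predeviation, to 0.091 (postdeviation) and 0.039 (impending ovulation) against deviation, and to a trend of 0.020. Between deviation and predeviation it was 0.013 with quantile normalization and 0.012 with DESeq2.

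With 1 library left out, miR-224 ranged from -2.39 to 0.0091 between preovulatory and predeviation, -2.33 to 0.138 between impending ovulation and predeviation, -1.12 to 0.072 between postdeviation and deviation, -2.07 to 0.330 between preovulatory and deviation, -2.01 to 0.459 between impending ovulation and deviation, -1.51 to 0.890 between preovulatory and postdeviation, -1.45 to 1.02 between impending ovulation and postdeviation, and -1.39 to 1.62 between impending ovulation and preovulatory. MiR-378 ranged from -0.184 to 0.091 between deviation and predeviation and from -0.260 to 0.015 between postdeviation and deviation. Between impending ovulation and preovulatory it ranged from -0.034 to 0.403. Between deviation and predeviation miR-378 was at 0.035 without predeviation 4, 0.008 without deviation 1 and 0.091 without deviation 4.

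Against predeviation, equal totals moved the median miRNA by 0.139 log2 at deviation, 0.339 at postdeviation, 0.441 at preovulatory and 0.387 at impending ovulation, and its trend by 0.112. Calls with equal totals were 22 higher and 1 lower in the trend (12 and 3 on the deposited scale), 16 and 5 at postdeviation (10 and 6), 13 and 1 at preovulatory (8 and 5) and 20 and 1 at impending ovulation (12 and 3); quantile normalization gave 6 and 7 at preovulatory. Over all settings the calls among all tested miRNAs ran from 2 to 45 (13 as reported) in the F test, 9 to 31 (15) in the trend, 7 to 21 (16) between postdeviation and predeviation, 2 to 47 (13) between preovulatory and predeviation, 4 to 24 (15) between impending ovulation and predeviation and 0 to 11 (1) between deviation and predeviation, and from 0 to 19 in the other 6 pairs.

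Libraries with the same replicate number did not deviate together: over 40 such pairs the correlation of their deviations from the stage means ran from -0.28 to 0.30, and 4 of 20 libraries correlated best with their own number. With the replicate number as a block no call of the 3 miRNAs changed (F test adjusted p by limma 0.716 for miR-378, 0.913 for miR-224, 0.289 for miR-383), while 9 miRNAs were called in the F test and 5 between preovulatory and predeviation. For miR-224 and miR-383 a read was worth 7.04 to 36.5 scaled reads, so their values move in steps of that size.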
